A study of Mus musculus with 10 samples.

Results

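The genes described here are 39 genes of fatty acid oxidation, ketone body metabolism and the peroxisome proliferator-activated receptors (PPARs), out of 54838 genes listed for each library. They were taken by symbol for what they are known to do, and all 39 passed the filter on low counts that left 14719 genes for testing. RNA came from jejunal crypts of 5 WT mice and 5 Arid3a cKO mice, with 1 mouse per library. The cKO mice were VillinCre-ERT2+/-; Arid3a fl/fl, and the Arid3a and Cre alleles of the WT mice were not given in the sources used here. Mice of both genotypes received tamoxifen on 3 consecutive days and were killed 1 month after the first dose, and their ages were not given in the sources used here. Villin drives the tamoxifen-activated Cre in epithelial cells, so that Arid3a is left intact in the other cells of the tissue. Crypts were released with EDTA from tissue whose villi had been removed by scraping. The comparison asked which of these genes differed in RNA level between the genotypes.

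Fatty acids are first bound to coenzyme A and then enter mitochondria through the carnitine shuttle. There, rounds of dehydrogenation, hydration, a further dehydrogenation and thiolysis release acetyl-CoA, and electrons from the first step pass through the electron transfer flavoprotein to the respiratory chain. Peroxisomes carry out a parallel pathway for very long-chain, branched and dicarboxylic fatty acids. Acetyl-CoA can be turned into ketone bodies, which other cells convert back to acetyl-CoA. PPARs are nuclear receptors that bind fatty acids, pair with retinoid X receptors on DNA and are known for switching on many genes of these pathways, in the intestine as in liver. In the small intestine enterocytes handle most dietary fat, while crypts hold stem, progenitor and Paneth cells.

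Expected counts summed to between 27050455 and 28152743 in WT libraries and to between 28314069 and 31053622 in cKO libraries, so that no WT library reached the smallest cKO total. Arid3a had 55 to 81 counts in WT libraries and 9 to 31 in cKO libraries, without overlap. Along the first principal component of the 1000 most variable genes, which held 59.9% of their variance, WT 3 (-32.4) and WT 4 (-39.0) lay farthest from the centre. The animal identifiers form separate series for the genotypes, so colony or litter cannot be told apart from genotype. Within genotypes, cKO 4 and cKO 5 share an identifier stem, as do cKO 1 and 2, WT 2 and 3, and WT 4 and 5. The leading counts are therefore also given without WT 3 and 4 and without cKO 4 and 5. Crypt RNA was present in every library: summed levels of 7 stem cell markers were 4475 to 9111 CPM (counts scaled to the same normalised library size) and those of 6 Paneth cell markers 5573 to 13999 CPM.

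Of the 39 genes, 26 were higher in cKO crypts, none was lower and 13 did not pass the test (edgeR quasi-likelihood test, Benjamini-Hochberg adjusted p under 0.05 over all tested genes). Among all 14719 genes, 28.3% passed in either direction, 15.6% as higher and 12.7% as lower. The median log2 fold change of the 39 genes was 0.46, with a range from -0.11 to 2.78, beside -0.03 over all tested genes. The log2 fold change was positive in 38 members, as it was in 45.9% of all genes. In 22 members every cKO library lay above every WT library, which held for 12.0% of all genes, and in none did every cKO library lie below every WT library, as in 7.63% of all genes. Most changes were small: folds among the 26 ran from 1.17 to 6.87, and 9 members rose by more than 1.5-fold, as did 6.99% of all genes. In the plot of member fold changes the values above 1 are those of Ppargc1a, Acad11, Acaa1b, Cyp4a10, Pdk4 and Angptl4, the last of which did not pass the test. All 39 are annotated as protein-coding, and 12 have exons that overlap another gene, 10 of them only on the opposite strand. The positions of 4 members (GRCm38) are Pdk4 at chr6:5483351-5496309 (minus strand), Ppargc1a at chr5:51454250-51567726 (minus strand), Acad11 at chr9:104063377-104127725 (plus strand) and Abcd3 at chr3:121758774-121815302 (minus strand).

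**Figure D1:**
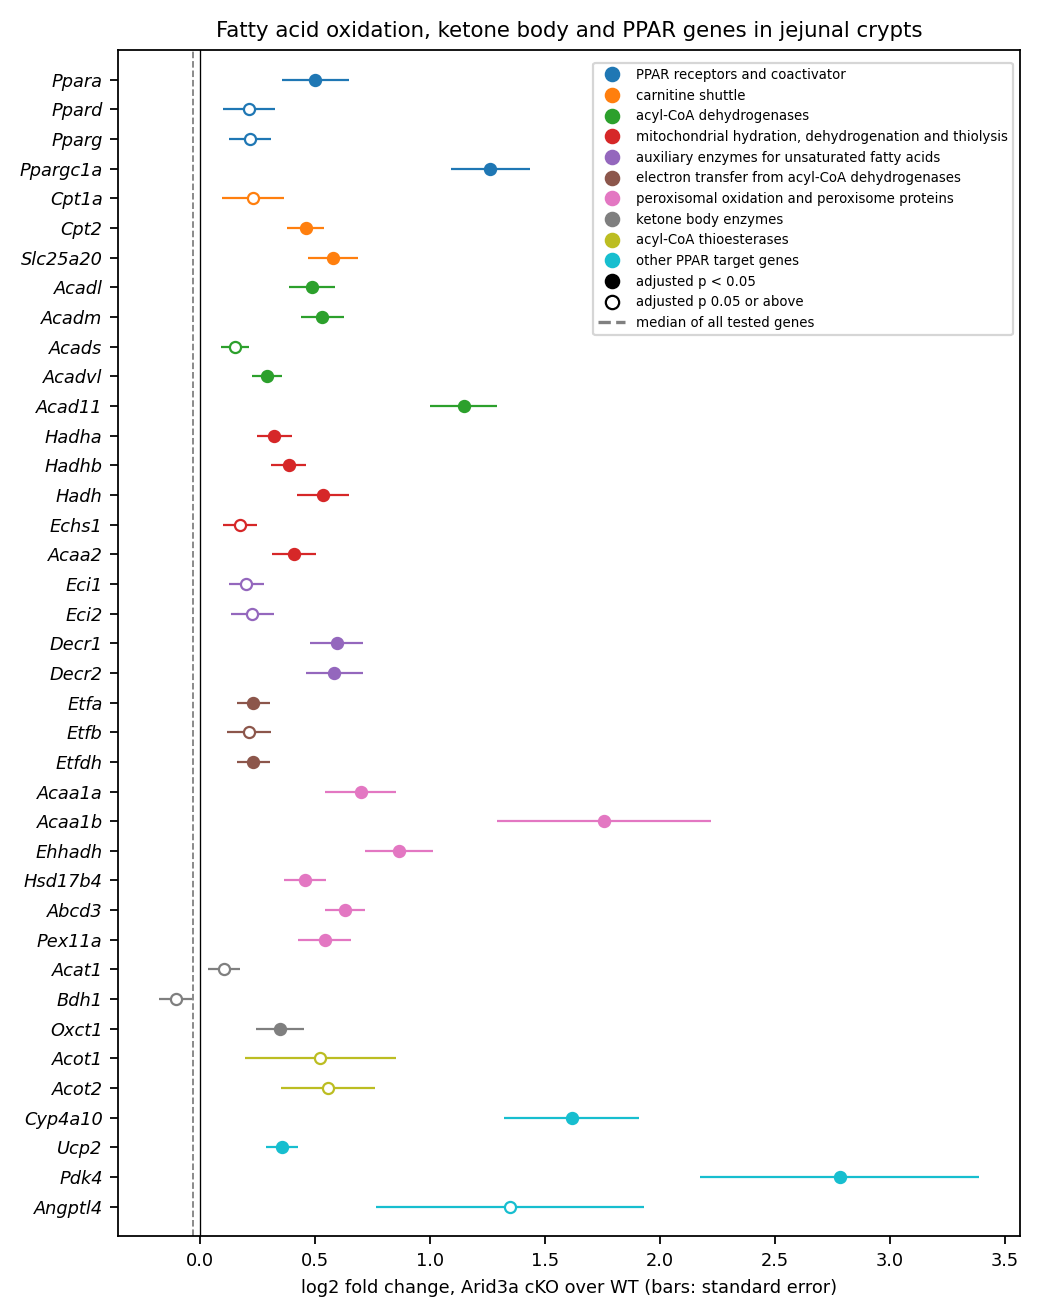
Log2 fold change (horizontal axis, cKO over WT, 5 mice each) of the 39 genes, one row per gene and one colour per role. Bars are standard errors, filled points passed the edgeR test, and the dashed line is the median of all tested genes (-0.03). Only Bdh1 lies left of 0, and Pdk4 lies farthest right at 2.78.

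The count of 26 moved with the libraries used and with the scaling. It was 17 without WT 3 and 4, where calls over all genes fell from 2298 higher and 1869 lower to 1472 and 671. It was also 17 without cKO 4 and 5, a choice added after the data were seen, with 1195 genes higher and 785 lower. Scaling by library size alone moved the median of all genes from -0.03 to -0.16 and turned the calls over all genes from 2298 higher and 1869 lower into 1541 higher and 4030 lower. Under that scaling the median of the members was 0.33, with 20 of them higher and 1, Bdh1, lower. The authors also deposited TPM values, which are counts divided by effective transcript length and scaled to the same sum in every library. On these values the median was -0.13 over all genes and 0.32 over the members. There 1405 of all genes were higher and 2740 lower, and of the members 19 were higher and Bdh1 was lower. With effective length as an offset in the count test, the median of all genes was -0.03 and 27 members were higher.

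Enterocyte markers moved with these genes. All 14 of the markers examined, among them the brush border phosphatase Alpi and the lipid carrier apolipoprotein Apoa4, were higher in cKO crypts and none of them was at 0. The median of their log2 fold changes was 1.68. Their summed level was 3188 to 11962 CPM in WT libraries and 14021 to 24442 CPM in cKO libraries, and it was lowest in WT 4 (3188) and WT 3 (4745) and highest in cKO 5 (24442) and cKO 4 (23332). Of the other epithelial lists, 5 of 8 proliferation markers, 4 of 7 stem cell markers and 4 of 6 Paneth cell markers were lower. Over all tested genes 15.6% were higher and 12.7% lower. The groups did not overlap in these 5 proliferation and 4 Paneth cell markers, but did overlap in the 4 stem cell markers. Of the 6 adipocyte markers none was tested, no library had more than 6 counts of any of them, and 3 were at 0 in all 10 libraries. The summed level of 7 fibroblast and stroma markers, none of which passed the test, was 18.5 to 99.9 CPM in WT libraries, 156 CPM in cKO 4 and 18.2 to 37.2 CPM in the other cKO libraries. The part that enterocyte or stromal RNA had in the values of the 39 genes was not tested. In bulk RNA, more cells of a type and more RNA per cell cannot be told apart.

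**Figure D2:**
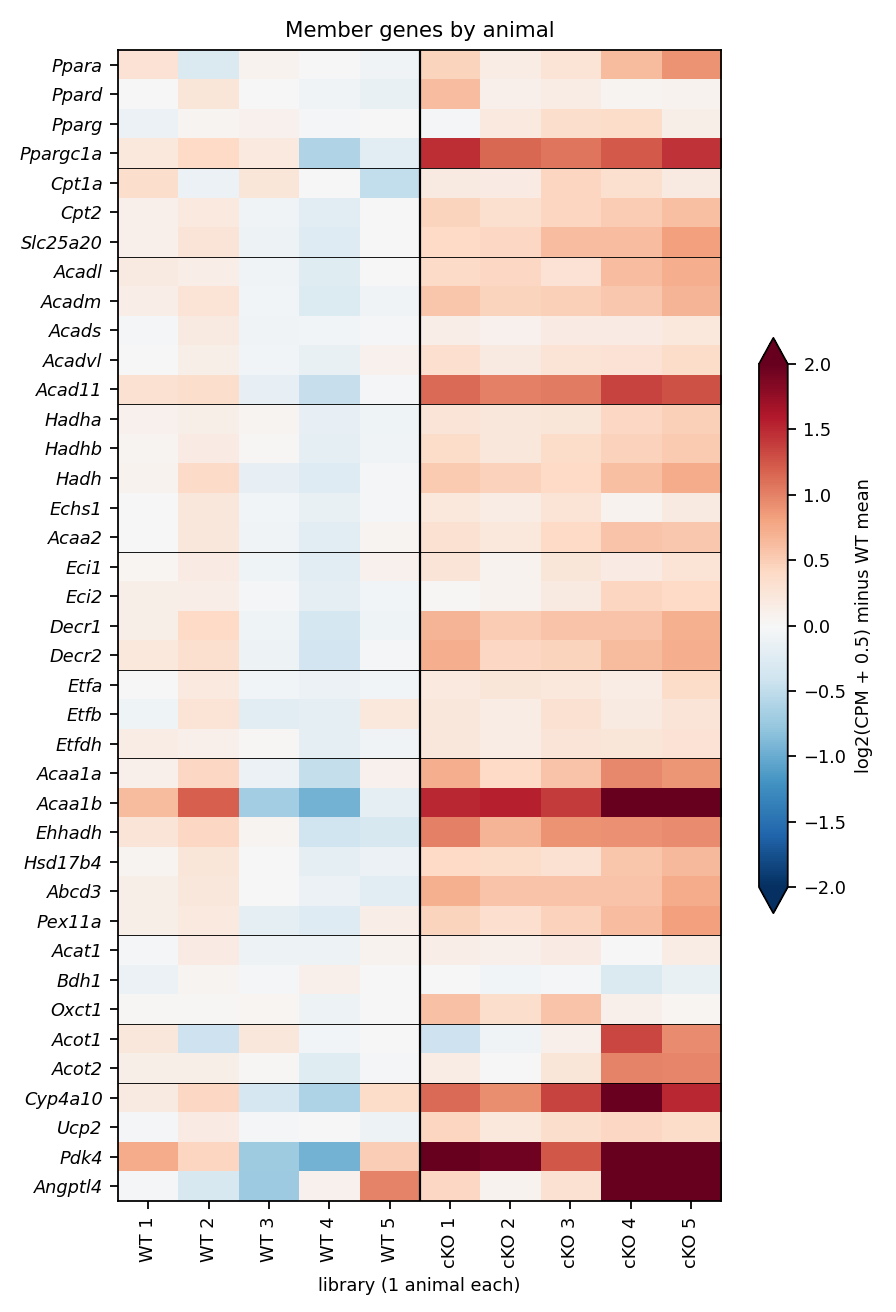
Level of each of the 39 genes (rows) in each library (columns, 1 mouse each), as log2(CPM + 0.5) minus the mean of the 5 WT libraries. Red is above the WT mean and blue below it, colours saturate at 2 and -2, and rows are ordered by role. The cKO columns are red in nearly every row and WT 4 is the bluest WT column in most rows. Among the cKO columns, Acot1, Acot2 and Angptl4 are darkest in cKO 4 and 5.

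The libraries ranked alike across many members. The highest library was a cKO library for 37 members, cKO 5 for 21 of them and cKO 4 for 8. The lowest library was WT 4 for 27 members. cKO 4 and cKO 5 were the 2 highest of all 10 libraries for 19 members, while any other pair of cKO libraries led the cKO group for at most 8. How often these libraries ranked so over all genes was not counted. The summed enterocyte markers were likewise lowest in WT 4 and highest in cKO 5 and cKO 4, so this order was also seen outside the 39 genes. The summed TPM of the 39 genes was 3246 to 3952 in WT libraries and 3800 to 4672 in cKO libraries, with cKO 2 below the highest WT library.

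Since these genes moved together, the RefSeq windows from 250 bases before to 50 after their annotated starts (GRCm38.p6) were searched on both strands. Of the 39 genes, 33 had a window and 37 windows were found. The classical PPAR element, called DR1 and written AGGTCANAGGTCA, was in 0 of 37 windows and in 0.0396% of all 32851 windows. Exact matches were so rare over all windows that 0 in 37 windows cannot tell the members from other genes. The hexamer AGGTCA, which DR1 contains, was in 6 windows (16.2%, beside 16.3% of all windows), those of Acadm, Acadvl, Cpt1a, Echs1 and, in 2 windows, Pparg. A core of the HNF4 element, CAAAGTCCA, was in 1 window, that of Abcd3, and in 0.475% of all windows. Windows of 280 bases of 2 genes that rose (Abcd3 and Acadvl) and 2 that did not pass the test (Cpt1a and Echs1) are shown so that the matches can be seen in place, 5′ to 3′ on the strand of the gene, with the match in capitals. They lie at chr3:121815273-121815552 (minus strand), chr11:70015399-70015678 (minus strand), chr19:3323051-3323330 (plus strand) and chr7:140116392-140116671 (minus strand), in that order.
Abcd3: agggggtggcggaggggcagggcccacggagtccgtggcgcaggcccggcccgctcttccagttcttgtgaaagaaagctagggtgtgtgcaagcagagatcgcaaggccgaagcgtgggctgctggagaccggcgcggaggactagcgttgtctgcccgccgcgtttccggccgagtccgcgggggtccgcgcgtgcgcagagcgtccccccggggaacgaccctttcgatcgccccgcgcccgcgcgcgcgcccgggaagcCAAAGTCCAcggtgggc
Acadvl: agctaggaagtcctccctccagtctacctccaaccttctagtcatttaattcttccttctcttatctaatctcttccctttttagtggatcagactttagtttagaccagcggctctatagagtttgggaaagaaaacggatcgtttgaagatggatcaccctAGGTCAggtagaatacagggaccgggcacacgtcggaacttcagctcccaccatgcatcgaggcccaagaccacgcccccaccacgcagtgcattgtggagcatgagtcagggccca
Cpt1a: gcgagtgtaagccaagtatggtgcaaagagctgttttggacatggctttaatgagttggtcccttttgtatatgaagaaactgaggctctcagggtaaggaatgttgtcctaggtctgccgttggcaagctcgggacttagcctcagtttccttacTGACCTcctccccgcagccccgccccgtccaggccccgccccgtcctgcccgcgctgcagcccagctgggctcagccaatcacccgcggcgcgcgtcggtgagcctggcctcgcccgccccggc
Echs1: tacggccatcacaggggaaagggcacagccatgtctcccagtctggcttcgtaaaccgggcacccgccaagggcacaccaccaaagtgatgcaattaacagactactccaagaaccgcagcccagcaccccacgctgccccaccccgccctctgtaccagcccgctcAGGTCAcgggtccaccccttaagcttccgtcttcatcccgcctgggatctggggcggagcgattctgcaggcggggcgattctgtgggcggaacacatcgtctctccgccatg
The match in Abcd3 begins 13 bases after the start, and those in Acadvl, Cpt1a and Echs1 begin at -87, -94 and -83 from it. The hexamer was thus present both in genes that rose and in genes that did not pass the test. The search covers only these letters in these windows, and a match does not show that a factor binds.

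Of the regulators, the coactivator Ppargc1a and the receptor Ppara rose. Ppargc1a encodes PGC-1α, which binds PPARs and other nuclear receptors and is known for raising mitochondrial gene expression. Its level was 20.6, 23.4, 20.4, 11.4 and 15.2 CPM in WT 1 to 5 and 49.97, 39.7, 37.6, 42.2 and 49.2 CPM in cKO 1 to 5. The lowest cKO library lay well above the highest WT library, and WT 4 was the lowest of all. The mean went from 18.2 ± 4.82 to 43.7 ± 5.61 CPM (SD, n = 5), a log2 fold change of 1.26 (SE 0.17, edgeR adjusted p = 9.91e-04), and the call held in all 23 alternative settings.

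Ppara, the receptor that governs fasting-induced fatty acid oxidation, had 29.7, 19.7, 25.4, 24.0 and 23.0 CPM in WT 1 to 5 and 33.2, 26.9, 29.3, 37.6 and 45.4 CPM in cKO 1 to 5. WT 1 lay above cKO 2 and cKO 3, and cKO 5 was the highest. The log2 fold change was 0.50 (SE 0.14, edgeR adjusted p = 0.0226). The edgeR adjusted p was 0.0509 without WT 4, 0.0502 without cKO 4 and 0.0535 without cKO 5, within a range of 0.00603 to 0.140 over the alternative settings. Ppard, the receptor found in most tissues, went from 133 ± 14.2 to 154 ± 27.9 CPM (edgeR adjusted p = 0.179), and cKO 1 stood apart at 204 CPM. Pparg, better known from fat cells, went from 14.3 ± 0.798 to 16.6 ± 1.94 CPM (edgeR adjusted p = 0.0944), which became 0.0480 without cKO 1. Per length, Ppard had the highest WT level of the receptors at 63.8 TPM, followed by Ppara at 12.7 and Pparg at 10.5 TPM.

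Of the 25 tested partners and coregulators of PPARs outside the 39 genes, 4 were higher (Rxra, Nrip1, Esrra, Hnf4g) and 2 lower (Pprc1, Nrf1). The count higher was close to the share of all genes, of which 15.6% were higher and 12.7% lower. The median log2 fold change of the list was 0.00. Nrip1, Esrra and Nrf1 are named after their values were seen. Rxra, the retinoid X receptor that pairs with PPARs, went from 101 ± 9.59 to 137 ± 7.12 CPM (log2 fold change 0.43, SE 0.07, edgeR adjusted p = 0.00188). Pprc1, a relative of PGC-1α, fell from 95.7 ± 16.3 to 61.8 ± 1.99 CPM (-0.63, SE 0.10, edgeR adjusted p = 0.00149). Hnf4g, a nuclear receptor of differentiated enterocytes, rose from 99.4 ± 17.2 to 206 ± 40.4 CPM (1.05, SE 0.14, edgeR adjusted p = 9.26e-04). Its relative Hnf4a went from 1151 ± 68.2 to 1040 ± 44.3 CPM (-0.15, SE 0.07, edgeR adjusted p = 0.120). The groups did not overlap in Rxra, Pprc1 or Hnf4g and did in Hnf4a.

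The carnitine shuttle rose at 2 of its 3 steps. Slc25a20, which carries acylcarnitine across the inner membrane, had 35.7, 39.9, 30.9, 27.8 and 33.1 CPM in WT 1 to 5 and 43.8, 44.6, 51.1, 51.5 and 58.8 CPM in cKO 1 to 5, without overlap (log2 fold change 0.58, SE 0.11, edgeR adjusted p = 0.00311). Cpt2, which returns the acyl group to coenzyme A inside, went from 91.7 ± 9.82 to 126 ± 8.74 CPM, also without overlap (0.46, SE 0.08, edgeR adjusted p = 0.00240). Cpt1a makes acylcarnitine at the outer membrane and is regarded as the control point of the pathway. It had 266, 192, 245, 209 and 148 CPM in WT 1 to 5 and 235, 232, 280, 261 and 237 CPM in cKO 1 to 5. WT 1 and WT 3 lay among the cKO libraries and the other WT libraries below them, and the log2 fold change of 0.23 (SE 0.13) did not pass the test (edgeR adjusted p = 0.219) or pass it in any of the 23 alternative settings.

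Of the 5 acyl-CoA dehydrogenases, which take the first step of each round and differ in the chain length they prefer, 4 rose. Acad11, which acts on very long chains, changed most: it had 60.4, 62.9, 43.7, 35.4 and 47.8 CPM in WT 1 to 5 and 108, 99.4, 101, 126 and 120 CPM in cKO 1 to 5. Every cKO library exceeded every WT library by a wide margin (log2 fold change 1.15, SE 0.14, edgeR adjusted p = 7.36e-04). Exons of Acad11 overlap Ackr4 on the opposite strand and Gm28305 on the same strand, and the strand setting of the counting was not given in the sources used here. The medium-chain enzyme Acadm went from 113 ± 16.3 to 163 ± 10.6 CPM (0.53, SE 0.09, edgeR adjusted p = 0.00249) and the long-chain enzyme Acadl from 122 ± 14.3 to 171 ± 21.5 CPM (0.49, SE 0.10, edgeR adjusted p = 0.00517). Acadvl, the very long-chain enzyme of the inner membrane, rose less, from 172 ± 12.6 to 211 ± 10.4 CPM (0.29, SE 0.07, edgeR adjusted p = 0.00799), and overlaps Dvl2 on the opposite strand. The call of Acadvl was lost with library size only (0.16, edgeR adjusted p = 0.0523), on the authors' TPM (0.17, limma adjusted p = 0.0529), without WT 3 and 4 (0.0531) and without cKO 4 and 5 (0.0607). The groups did not overlap in these 4 genes. Acads, the short-chain enzyme, went from 68.6 ± 4.95 to 76.2 ± 2.70 CPM (0.15, SE 0.06, edgeR adjusted p = 0.0874). WT 2 was the highest WT library for Acads at 77.3 CPM, and without it the edgeR adjusted p was 0.0177, within a range of 0.0177 to 0.802 over the alternative settings.

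Hydration, the second dehydrogenation and thiolysis of the mitochondrial pathway are carried out by the trifunctional protein (Hadha and Hadhb) on long chains and by Echs1, Hadh and Acaa2 on shorter ones, and 4 of these 5 genes rose. Hadh, the short-chain hydroxyacyl-CoA dehydrogenase, had 394, 490, 337, 315 and 369 CPM in WT 1 to 5 and 542, 518, 498, 568 and 627 CPM in cKO 1 to 5. WT 2 came close to the lowest cKO library without reaching it (log2 fold change 0.53, SE 0.11, edgeR adjusted p = 0.00574). Hadha went from 305 ± 24.5 to 381 ± 30.7 CPM (0.32, SE 0.08, edgeR adjusted p = 0.0100) and its partner Hadhb from 192 ± 16.8 to 250.3 ± 18.8 CPM (0.38, SE 0.08, edgeR adjusted p = 0.00444), both without overlap. The call of Hadha was lost with library size only (0.19, edgeR adjusted p = 0.0669), on the authors' TPM (0.19, limma adjusted p = 0.104), without WT 3 and 4 (0.0511), without cKO 4 and 5 (0.0869) and with mice added by identifier stem (0.0535). The thiolase Acaa2 went from 199 ± 22.6 to 264 ± 28.2 CPM (0.41, SE 0.09, edgeR adjusted p = 0.00847), with WT 2 (231) just above cKO 2 (230). Without WT 3 and 4 the edgeR adjusted p of Acaa2 was 0.0554, and without cKO 4 and 5 it was 0.0758 for Acaa2 and 0.0507 for Hadh. Echs1, the short-chain hydratase, went from 124 ± 12.7 to 140.1 ± 7.82 CPM (0.17, SE 0.08, edgeR adjusted p = 0.104). Without WT 2, its highest WT library, the edgeR adjusted p was 0.0143, within a range of 0.0143 to 0.658 over the alternative settings. Hadhb shares 99.8% identity over 1428 bases with Gm13910, so reads may have been divided between them.

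Of the 4 auxiliary enzymes, which handle double bonds, the reductases rose and the isomerases did not pass the test. Decr1, the mitochondrial dienoyl-CoA reductase, had 109, 132, 94.1, 78.4 and 94.5 CPM in WT 1 to 5 and 161, 143, 149, 149 and 164 CPM in cKO 1 to 5. Its peroxisomal counterpart Decr2 had 41.0, 44.3, 33.2, 27.1 and 34.5 CPM in WT 1 to 5 and 59.2, 47.5, 48.2, 55.1 and 59.3 CPM in cKO 1 to 5. Both were higher in every cKO library, by a log2 fold change of 0.59 (SE 0.12, edgeR adjusted p = 0.00377) for Decr1 and 0.58 (SE 0.12, edgeR adjusted p = 0.00575) for Decr2. The isomerases Eci1 and Eci2 went from 58.8 ± 5.92 to 67.6 ± 3.78 CPM and from 70.7 ± 6.22 to 82.7 ± 10.8 CPM, with edgeR adjusted p of 0.0693 and 0.0898. Without WT 2 that of Eci1 was 0.0287, and its values ran from 0.0287 to 0.728 over the alternative settings. Eci2 shares 91.8% identity over 891 bases with Eci3.

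The electron transfer flavoprotein and its dehydrogenase changed by little, with log2 fold changes between 0.21 and 0.23. Etfa, the α subunit, went from 198 ± 17.1 to 233 ± 13.9 CPM (edgeR adjusted p = 0.0309), with WT 2 (227) above cKO 4 (218) and level with cKO 1 (227). Etfdh, which passes the electrons to ubiquinone, went from 130 ± 12.5 to 152 ± 5.08 CPM (edgeR adjusted p = 0.0304), with cKO 2 (144.0) just above WT 1 (143.7). These 2 calls were the least stable of the 26: that of Etfa was lost in 13 and that of Etfdh in 14 of 23 alternative settings. For Etfa leaving out WT 3, WT 4, WT 5, cKO 1, cKO 2, cKO 3 or cKO 5 was enough, with edgeR adjusted p of 0.0680, 0.0768, 0.0533, 0.0504, 0.0690, 0.0506 and 0.0961. For Etfdh the same held for WT 3, WT 4, WT 5, cKO 1, cKO 3, cKO 4 or cKO 5, with 0.0511, 0.0651, 0.0581, 0.0567, 0.0574, 0.0548 and 0.0845. Over all alternative settings the adjusted p ran from 0.00615 to 0.251 for Etfa and from 0.0158 to 0.289 for Etfdh. Etfb, the β subunit, went from 110.2 ± 17.6 to 128 ± 5.44 CPM (edgeR adjusted p = 0.119, and 0.0282 without WT 2), and shares 99.7% identity over 626 bases with Gm45233, which overlaps it.

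All 6 peroxisomal oxidation and peroxisome genes rose, with a median log2 fold change of 0.66. Ehhadh, the bifunctional hydratase and dehydrogenase and a well-known PPARα target, had 82.7, 92.1, 71.5, 52.1 and 55.4 CPM in WT 1 to 5 and 139.9, 111, 129, 130.4 and 134 CPM in cKO 1 to 5. The lowest cKO library lay above the highest WT library (log2 fold change 0.86, SE 0.15, edgeR adjusted p = 0.00223). Abcd3, which imports fatty acids into peroxisomes, had 196, 213, 180, 167 and 157 CPM in WT 1 to 5 and 298, 270.2, 269.9, 269.6 and 305 CPM in cKO 1 to 5. The cKO values were close to one another and far above the WT values (0.63, SE 0.09, edgeR adjusted p = 8.00e-04), and the call held in all 23 alternative settings. Hsd17b4, the other bifunctional enzyme, went from 173 ± 19.9 to 237 ± 23.4 CPM (0.45, SE 0.09, edgeR adjusted p = 0.00450) and Pex11a, a promoter of peroxisome division, from 29.4 ± 4.24 to 42.8 ± 5.76 CPM (0.54, SE 0.11, edgeR adjusted p = 0.00560), both without overlap.

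The peroxisomal thiolases Acaa1a and Acaa1b are 96.6% identical over 1428 bases, so the split of reads between them is uncertain. Acaa1a had 99.5, 124, 85.9, 66.6 and 98.9 CPM in WT 1 to 5 and 155, 123, 139, 182 and 171 CPM in cKO 1 to 5. WT 2 lay just above cKO 2, and the log2 fold change was 0.70 (SE 0.15, edgeR adjusted p = 0.00771), or 0.55 without cKO 4 and 5 (edgeR adjusted p = 0.0617). Acaa1b was scarcer, with 5.08, 7.78, 1.73, 1.37 and 2.66 CPM in WT 1 to 5 and 9.74, 10.1, 8.99, 16.3 and 17.8 CPM in cKO 1 to 5. WT 2 came nearest to the cKO libraries, and cKO 4 and 5 were the highest (1.76, SE 0.46, edgeR adjusted p = 0.0206). The adjusted p of Acaa1b was 0.0515 without WT 5 and 0.0506 without cKO 5, and ran from 0.00295 to 0.119 over the alternative settings. With the counts of both genes added, the log2 fold change was 0.76 (SE 0.16, edgeR adjusted p = 0.00753). Acaa1b supplied 1.98 to 5.91% of the summed CPM of the pair in WT libraries and 5.91 to 9.43% in cKO libraries.

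The wider peroxisomal list gave 19 of 36 tested genes higher and 1 lower, with a median log2 fold change of 0.36. Of all tested genes, 15.6% were higher and 12.7% lower. The acyl-CoA thioesterase Acot12, a cytosolic enzyme kept on this list, rose from 4.95 ± 3.66 to 19.8 ± 8.29 CPM (1.995, SE 0.54, edgeR adjusted p = 0.0234). The isomerase Eci3 rose from 7.96 ± 4.67 to 26.4 ± 5.45 CPM (1.73, SE 0.42, edgeR adjusted p = 0.0146). The gene that fell was Pecr, a trans-2-enoyl-CoA reductase, from 18.5 ± 1.76 to 14.9 ± 1.12 CPM (-0.31, SE 0.09, edgeR adjusted p = 0.0209). In these 3 genes the groups did not overlap. Eci3 is a close copy of Eci2, as given above.

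Of the 3 ketone body enzymes only Oxct1 passed the test, and that call depended on the scale. Oxct1 activates acetoacetate in cells that use ketone bodies. It had 149, 149, 150.0, 137 and 146 CPM in WT 1 to 5 and 219, 187, 217, 156 and 151 CPM in cKO 1 to 5. cKO 4 and 5, the highest libraries for many other members, were the lowest cKO libraries here and lay just above the WT libraries (log2 fold change 0.35, SE 0.10, edgeR adjusted p = 0.0268). On the TPM scale the means were 80.5 ± 10.9 and 81.1 ± 14.1. The effective length that RSEM assigned to Oxct1, an average over its transcripts weighted by their abundance, was 2366 ± 218 bases in WT libraries and 2767 ± 108 bases in cKO libraries. With that length as an offset the log2 fold change was 0.13 (edgeR adjusted p = 0.446). The adjusted p also exceeded the threshold without WT 4 (0.0643), cKO 1 (0.0690), cKO 2 (0.0568) or cKO 3 (0.0649), and over all alternative settings it ran from 0.00862 to 0.987. Exons of Oxct1 overlap BC037032 on the opposite strand. In the plot of Oxct1 on both scales the groups separate in CPM, mix in TPM and differ in length.

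**Figure D3:**
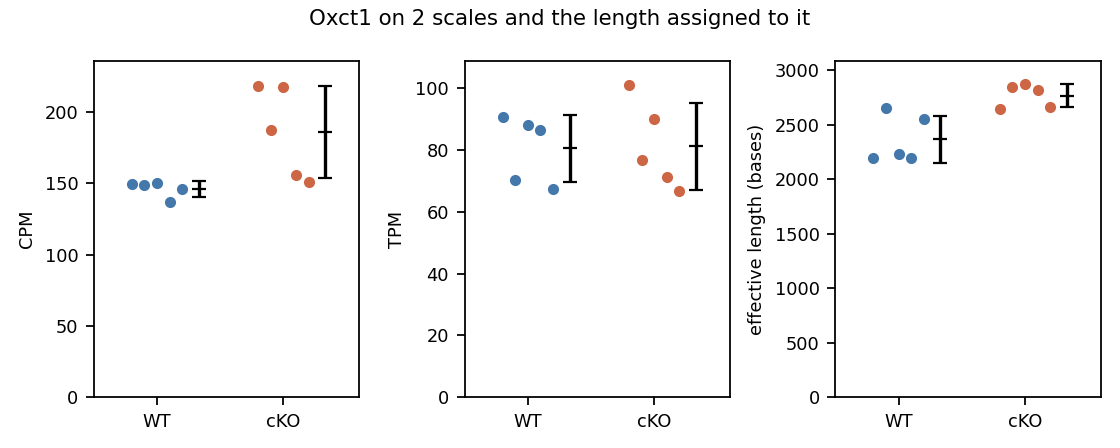
Oxct1 in 5 WT and 5 cKO libraries in CPM (left), in TPM (middle) and as its effective length in bases (right), with points for mice in the order 1 to 5 and bars for mean and SD. CPM runs from 137 to 150.0 in WT and from 151 to 219 in cKO, while the mean TPM is 80.5 in WT and 81.1 in cKO.

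Acat1, the mitochondrial acetoacetyl-CoA thiolase that acts in both directions, went from 268 ± 22.1 to 288 ± 11.8 CPM (log2 fold change 0.10, SE 0.07, edgeR adjusted p = 0.274), with WT 2 the highest of all libraries at 300.1 CPM. Its log2 fold change was -0.025 when scaled by library size alone. Bdh1, which interconverts acetoacetate and 3-hydroxybutyrate, had 233, 263, 247, 272 and 253 CPM in WT 1 to 5 and 253, 243, 247, 207 and 227 CPM in cKO 1 to 5. The groups overlapped, with cKO 4 and 5 lowest, and the log2 fold change of -0.11 (SE 0.07) did not pass the test (edgeR adjusted p = 0.277). It was lower in cKO by library size alone (-0.24, edgeR adjusted p = 0.0197) and on the authors' TPM (-0.28, limma adjusted p = 0.0130), where the means were 215 ± 15.4 and 177 ± 13.4 TPM. Over all alternative settings the adjusted p of Bdh1 ran from 0.0130 to 0.817.

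Of 7 further ketone body genes tested, 2 were higher and none was lower. Their median log2 fold change was -0.02, beside -0.03 over all tested genes, of which 15.6% were higher and 12.7% lower. One of the 2, named after its values were seen, was the transporter Slc16a6 (0.50, SE 0.12, edgeR adjusted p = 0.00887). The groups overlapped in both of the 2 genes.

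The thioesterases Acot1 and Acot2, which split acyl-CoA in the cytosol and in mitochondria and are known PPARα targets, did not pass the test. Acot1 had 19.5, 12.4, 19.6, 16.0 and 16.6 CPM in WT 1 to 5 and 12.3, 15.8, 17.8, 42.5 and 32.4 CPM in cKO 1 to 5. Acot2 had 9.47, 9.47, 8.89, 7.30 and 8.51 CPM in WT 1 to 5 and 9.67, 8.74, 10.4, 17.8 and 17.6 CPM in cKO 1 to 5. In both genes cKO 4 and 5 stood high, while cKO 1 to 3 lay among or next to the WT libraries. The log2 fold change of Acot1 was 0.52 (SE 0.33, edgeR adjusted p = 0.264), and -0.13 without cKO 4 and 5 (edgeR adjusted p = 0.621), within a range of 0.119 to 0.621 over the alternative settings. That of Acot2 was 0.56 (SE 0.20, edgeR adjusted p = 0.0598), which became 0.0448 without cKO 1, 0.0293 without cKO 2 and 0.465 without cKO 4 and 5. With DESeq2 Acot2 passed, at 0.57 (DESeq2 adjusted p = 0.0297). The 2 genes are 95.1% identical over 1274 bases, and with their counts added the log2 fold change was 0.53 (SE 0.28, edgeR adjusted p = 0.178).

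**Figure D4:**
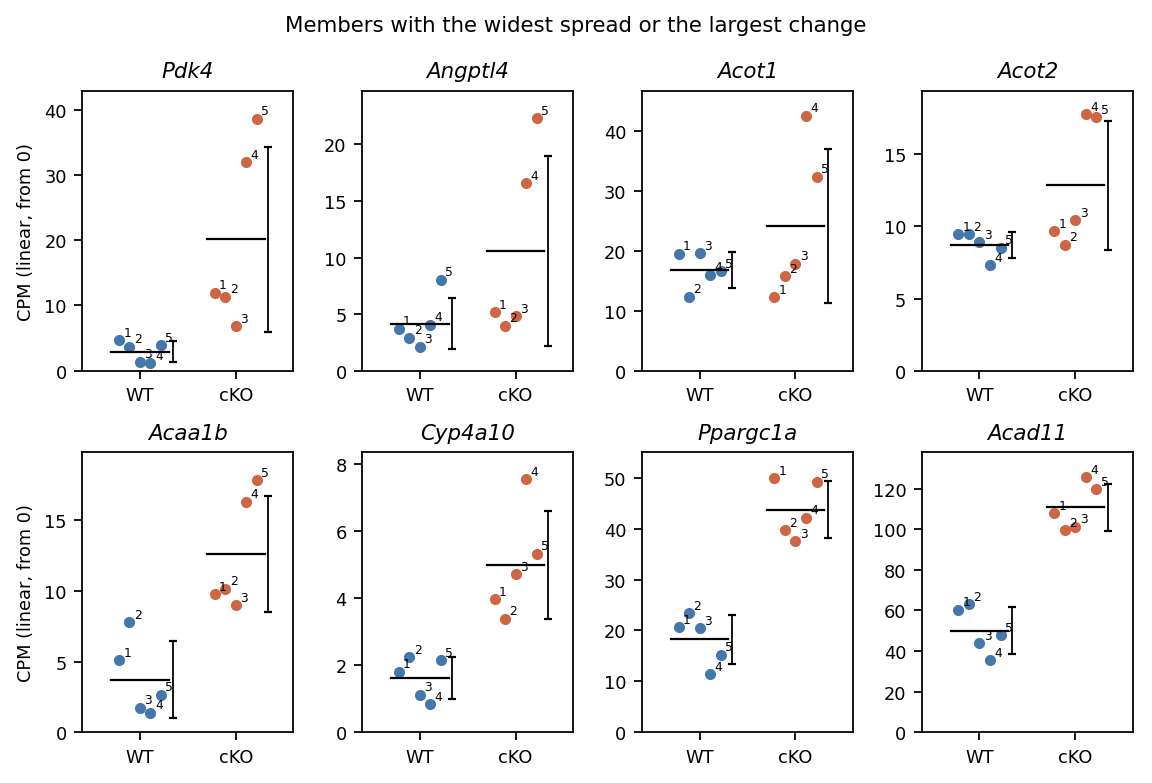
Level in CPM (vertical axes, linear and from 0) of the 8 members with the widest spread or largest change, with 1 point per mouse, numbered, the mean as a line and the SD as a bar. cKO 4 and 5 lie far above cKO 1 to 3 in Pdk4, Angptl4, Acot1, Acot2 and Acaa1b. All 5 cKO mice lie above all WT mice in Pdk4, Acaa1b, Cyp4a10, Ppargc1a and Acad11.

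Of the 4 other PPAR target genes 3 rose. Pdk4, a kinase that shuts pyruvate dehydrogenase and so spares glucose when fatty acids are burned, had 4.67, 3.65, 1.39, 1.11 and 3.86 CPM in WT 1 to 5 and 12.0, 11.4, 6.78, 32.0 and 38.6 CPM in cKO 1 to 5. Every cKO library lay above every WT library, with cKO 4 and 5 highest and WT 3 and 4 lowest. The log2 fold change of 2.78 (SE 0.61, edgeR adjusted p = 0.0102) was the largest of the 39 genes. It was 1.77 without cKO 4 and 5, where the call held, and 2.31 without WT 3 and 4 (edgeR adjusted p = 0.0589), and the adjusted p ran from 5.41e-05 to 0.0619 over the alternative settings. Cyp4a10, an ω-hydroxylase of fatty acids and a strong PPARα target in liver, had 1.81, 2.24, 1.12, 0.837 and 2.15 CPM in WT 1 to 5 and 3.98, 3.39, 4.72, 7.55 and 5.34 CPM in cKO 1 to 5. Its groups did not overlap either, at a level of 25 to 222 counts per library (1.62, SE 0.29, edgeR adjusted p = 0.00273). Cyp4a10 shares 97.2% identity over 1530 bases with Cyp4a32 and 96.1% over 1593 bases with Cyp4a31.

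Angptl4, a secreted inhibitor of lipoprotein lipase, had 3.69, 2.93, 2.10, 4.05 and 8.04 CPM in WT 1 to 5 and 5.19, 3.98, 4.83, 16.6 and 22.3 CPM in cKO 1 to 5. WT 5 lay above cKO 1 to 3, and only cKO 4 and 5 stood clear of the WT group. The log2 fold change of 1.35 (SE 0.58) did not pass the test (edgeR adjusted p = 0.114), and it was 0.17 without cKO 4 and 5 (edgeR adjusted p = 0.785). Ucp2, a carrier of the inner mitochondrial membrane, was the member with the highest per-length level, at 598 ± 51.3 TPM in WT. It had 525, 599, 524, 533 and 501 CPM in WT 1 to 5 and 719, 620, 685, 713 and 692 CPM in cKO 1 to 5. The groups did not overlap, and the log2 fold change was 0.35 (SE 0.07, edgeR adjusted p = 0.00422), with 0.21 on the authors' TPM (limma adjusted p = 0.0725). Exons of Ucp2 overlap Dnajb13 on the opposite strand.

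Among 33 further PPAR target and lipid droplet genes tested, 19 were higher and 2 lower, with a median log2 fold change of 0.55. Of all tested genes, 15.6% were higher and 12.7% lower. The fatty acid transporter Cd36 rose from 6.97 ± 4.85 to 34.1 ± 20.5 CPM (2.29, SE 0.59, edgeR adjusted p = 0.01998) and the glycerol channel Aqp7 from 1.38 ± 0.808 to 6.02 ± 1.67 CPM (2.12, SE 0.36, edgeR adjusted p = 0.00218), both without overlap. Cd36 had 48.8 and 62.3 CPM in cKO 4 and 5 and 15.4 to 24.8 CPM in cKO 1 to 3. Fabp1, a fatty acid binding protein that is also one of the enterocyte markers, went from 372 ± 262 to 1089 ± 265 CPM with overlap (1.55, SE 0.49, edgeR adjusted p = 0.0438). Fabp2, named only for this, is likewise both on this list and among the enterocyte markers. Plin2, which coats lipid droplets, went from 73.0 ± 13.1 to 86.2 ± 4.22 CPM (0.24, SE 0.10, edgeR adjusted p = 0.104). The desaturases Fads1 and Fads2 fell, with log2 fold changes of -0.48 (SE 0.11, edgeR adjusted p = 0.00923) and -0.43 (SE 0.10, edgeR adjusted p = 0.00939), without overlap.

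Of 25 further genes of fatty acid oxidation and related acyl-CoA metabolism, 6 were higher and none was lower, with a median log2 fold change of 0.10. The list also holds enzymes of amino acid and propionate breakdown, so its median is not that of fatty acid oxidation alone. Acacb, named only for this, is counted on the fatty acid synthesis list too. The 6 included the acyl-CoA synthetases Acsl5, from 470.2 ± 162 to 976 ± 117 CPM (1.05, SE 0.21, edgeR adjusted p = 0.00517), and Acsl6, from 3.51 ± 0.708 to 8.57 ± 4.99 CPM (1.29, SE 0.32, edgeR adjusted p = 0.0125). For Acsl6, cKO 4 had 17.4 CPM and the other cKO libraries 5.27 to 7.48 CPM. Of 21 genes of the citrate cycle, which burns the acetyl-CoA, and of pyruvate dehydrogenase, 8 were higher and none was lower (median 0.17). Ogdh was at 0.65 (SE 0.10, edgeR adjusted p = 0.00145) and Mdh2 at 0.66 (SE 0.14, edgeR adjusted p = 0.00607). None of the pyruvate dehydrogenase genes on the list passed the test. Of 20 genes of mitochondrial import and outer membrane 1 was higher (Mfn2) and 2 were lower (Tomm40 and Timm50), with a median of 0.01 and Timm50 at -0.39 (SE 0.09, edgeR adjusted p = 0.00882). Of 11 fatty acid synthesis genes 2 were higher (Me1 and Elovl6) and 1 was lower (Fasn), with a median of -0.32 and Me1, a source of NADPH, at 0.76 (SE 0.13, edgeR adjusted p = 0.00185). Mfn2, Tomm40, Elovl6 and Fasn are named after their values were seen. Beside these counts, 15.6% of all tested genes were higher and 12.7% lower. The difference between any of these lists and the 39 genes was not tested.

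**Figure D5:**
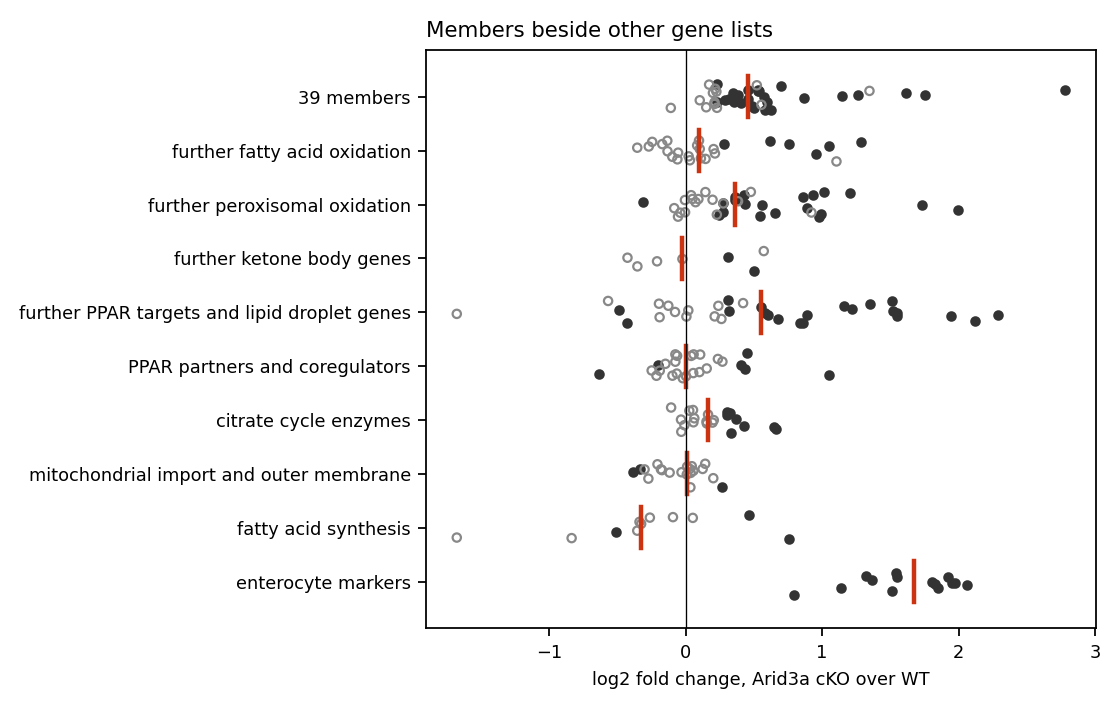
Log2 fold change (horizontal axis, cKO over WT) of every tested gene in the 39-gene set, in 8 other lists and among 14 enterocyte markers. Points are genes, filled where the edgeR adjusted p passed 0.05 and open otherwise, and red bars are medians. The medians are 0.46 for the 39 genes, 0.55 for further PPAR targets, 0.36 for further peroxisomal genes, 1.68 for enterocyte markers, and between -0.32 and 0.17 for the other lists.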

How the data were processed

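RNA-seq libraries of jejunal crypts from 5 WT and 5 Arid3a cKO mice were analysed, grouped by the genotype in their labels. The authors processed reads with nf-core/rnaseq, STAR and RSEM against the Ensembl annotation of GRCm38 and deposited, per gene and library, expected counts, TPM and effective length, with the expected counts not normalized between libraries. The strand setting was not given in the sources used here, and RSEM divides reads that match several genes. Rounded expected counts were tested with edgeR 4.0.16 in R 4.3.3: filterByExpr (minimum count 10, minimum total 15), TMM factors, robust quasi-likelihood test on genotype, Benjamini-Hochberg adjustment over 14719 genes and a threshold of 0.05. DESeq2 with status and time was the model of the study, and time does not vary here. Genes without a symbol held 0.0193% of counts. A gene at 1 CPM had 27 to 31 counts in a library.

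The members and the other gene lists were chosen with earlier results of these data known. Every member is named, as are Plin2, Fabp1, Cd36, Rxra, Hnf4a and Hnf4g. From each other list and direction, the 2 genes with the largest change among those that passed the test, averaged at least 50 normalized counts and did not overlap between groups are named too. A few other list genes are counted and tested but not reported here by name. Nothing in the labels says whether cage mates or litters were shared, and p-values measure the spread between these mice. No within-group pair of libraries agreed within sampling noise (smallest chi-square per gene 14.9).

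Alternatives were limma-voom (limma 3.58.1), DESeq2 1.42.0, scaling by RLE or by library size alone, a filter of at least 10 counts in every library or none, limma on log2 of the authors' TPM with a pseudocount of 0.1, effective length as an offset, the replicate number as a block, leaving out each mouse, leaving out WT 3 and 4, adding close paralogs, and a fold above 1.5. Leaving out cKO 4 and 5 and adding mice with a shared identifier stem (3 stems per genotype) were chosen after the data were seen. Positions and overlaps came from GENCODE for GRCm38, near copies from BLAST 2.17.0 (identity of at least 90% over at least 20% of the transcript) and start-site windows from RefSeq (GRCm38.p6). Scripts were tested on simulated counts.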

Additional observations from a re-analysis of the deposited data

Results flagged for a closer look

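In each of the 78 groups of 5 libraries (39 genes in 2 genotypes) the highest and lowest library was compared with its nearest neighbour, and chance alone marks about 1 group in 20. Ppard in cKO 1, at 204 CPM, stood apart from the next cKO library, at 147 CPM, by a gap of 0.853 of the range of the group. Acads in WT 2, at 77.3 CPM, stood apart from the next WT library, at 67.7 CPM, by 0.791 of the range.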

How the results depend on the processing

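Of 893 values of single members under alternative settings, 810 kept their direction and their side of the threshold, 66 lost the call, 15 gained it and 2 changed sign: Acat1 with library size only (-0.025) and Acot1 without cKO 4 and 5 (-0.13). Of the 26 members called higher, 14 were called in every setting and 12 lost the call in at least 1; of the other 13, 4 were never called. Calls were lost by 9 members without WT 3 and 4, by 9 without cKO 4 and 5, by 7 on the authors' TPM, by 6 with library size only, by 5 with mice added by identifier stem and by 3 with the replicate block. With mice left out in turn, genes higher ran from 1760 to 2572 and genes lower from 1131 to 2112. Members higher ran from 22 to 30 and members lower stayed at 0. The other pathway genes were 50 higher and 5 lower with all mice, and ran from 40 to 57 and from 3 to 7. They leave out the citrate cycle, mitochondrial import and fatty acid synthesis lists. Without WT 4, 1131 genes were lower, and without WT 4 or without cKO 1, 3 other pathway genes were lower.

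Library size only gave 4030 genes lower, 1 member lower and 20 other pathway genes lower. The authors' TPM gave 1405 genes higher and 2740 lower, 1 member lower and 9 other pathway genes lower. Without WT 3 and 4, 1472 genes were higher and 671 lower, 17 members higher and 1 other pathway gene lower. Without cKO 4 and 5, 1195 genes were higher and 785 lower, with 17 members and 26 other pathway genes higher. Adding mice by identifier stem gave 1004 genes lower. A fold above 1.5 left 1029 genes higher and 452 lower, 9 members higher, and 31 other pathway genes higher and 1 lower. The rule on fold lowers the number of calls by construction, and the cause of the other shifts was not tested. DESeq2 called 27 members higher, among 2589 higher and 2169 lower genes.

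Same-numbered libraries deviated from their group means with correlations from -0.157 to 0.131 (median of other pairs 0.0035). The labels name no pairs, so the mice were treated as unpaired, and these correlations cannot show that no pairing exists. With the replicate block Angptl4 passed (1.15, edgeR adjusted p = 0.0180), 24 members were higher, as were 1861 genes, and 1191 genes were lower. Libraries sharing an identifier stem may not be independent, and near copies limit Acaa1a, Acaa1b, Acot1, Acot2 and Cyp4a10. Genes near 1 CPM, such as Cyp4a10 in WT, rest on few counts.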

Other observations

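Markers of secretory cells, which are not described with the genes of fatty acid oxidation, gave mixed values. Of 7 enteroendocrine markers 3 were higher in cKO crypts and none was lower (edgeR adjusted p under 0.05, median log2 fold change 0.44), and their summed level was 357 to 427 CPM in WT libraries and 481 to 704 CPM in cKO libraries. Of 6 tested tuft cell markers 3 were higher and none was lower, with summed levels of 95.8 to 104 CPM in WT and 112 to 123 CPM in cKO libraries. Of 7 goblet cell markers 1 was lower and none was higher. Both enteroendocrine and tuft sums were separate between the genotypes, and the goblet sums overlapped. Of 10 leukocyte markers 2 were lower, with summed levels of 99.3 to 182 CPM in WT and 44.8 to 169 CPM in cKO libraries, the highest cKO value being that of cKO 4. Beside these counts, 15.6% of all tested genes were higher and 12.7% lower. The counts of lower goblet and leukocyte markers were close to the latter share.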
